A study of Mus musculus with 2 samples.

Results

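Matrix metalloproteinases (MMPs) and their tissue inhibitors (TIMPs) were followed in the immune infiltrate of mouse liver metastases. The 7 genes Mmp12, Mmp13, Mmp14, Mmp19, Timp1, Timp2 and Timp3 were taken by symbol, and all 7 were found among the 56941 features of the count matrices, which hold 23 Mmp and 4 Timp genes in all. The study compared 2 conditions, each as a single droplet library of cells with CD45 selection from liver lesions. In Ctrl, C57BL/6 mice carried MC38-LM3b-shScramble tumours, and in KD they carried MC38-LM3b-shSLAMF3 tumours, so the hairpin against SLAMF3 (gene Ly9) sat in the tumour cells and the infiltrating host cells of both groups were of one genotype. MC38-LM3b is a liver metastatic derivative of the MC38 colon cancer line, passaged through mice and used here as 1 line. Mice aged 6 to 8 weeks received the cells by injection into the spleen, and lesions were taken after 2 weeks and pooled from 3 mice for each library. With 1 library per group there was no replicate error and no test between groups. Every interval below is a 95% interval of counting error only, and a difference beyond it separates these 2 libraries, not the conditions.

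MMPs are zinc endopeptidases made as inactive proenzymes that cleave extracellular matrix and many cell surface and secreted proteins. Mmp12 (macrophage metalloelastase) degrades elastin, Mmp13 (collagenase 3) cleaves fibrillar collagen, Mmp14 (MT1-MMP) is anchored in the membrane and activates pro-MMP2, and Mmp19 is a secreted enzyme of basement membrane substrates. TIMPs bind the active site of MMPs in a tight complex. Timp1 inhibits membrane-type MMPs poorly, Timp2 both inhibits Mmp14 and serves with it in the activation of pro-MMP2, and Timp3 is held in the matrix and also inhibits ADAM proteases.

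After filtering, 9814 Ctrl and 10185 KD cells were kept, with medians of 5411.5 and 4989 unique molecular identifiers (UMIs, 1 per captured RNA molecule) per cell, and 27 barcode sequences occurred in both libraries. Clusters made up 4060 Ctrl and 2916 KD macrophages, monocytes included and Kupffer-like cells left out, which were 41.4% (40.4 to 42.4) and 28.6% (27.8 to 29.5) of the cells. The summed level of 10 macrophage markers was 12746 CPM (UMIs of a gene per 1000000 UMIs of its group of cells) in these Ctrl cells and 16711 in KD, against 1255 and 1390 CPM in conventional dendritic cell (cDC)-like cells. Macrophages fell into states named by markers (C1q-high-like, Vcan monocyte-like, inflammatory-like, cycling-like and Ltc4s-Pf4-like) and 2 larger states without a name, led by Upp1 and Ly6i and by Cadm1 and Psd3. The Ltc4s-Pf4-like state held 4 Ctrl and 340 KD cells, so nearly all of it came from 1 library. The Cadm1/Psd3 state was shallow, with medians of 2579 and 2202.5 UMIs per cell, and had the highest mitochondrial shares of all states and classes of at least 50 cells (medians of 3.49% and 4.93%). The macrophage states also differed in size, the C1q-high-like state being 7.59% of Ctrl and 20.4% of KD macrophages and the cycling-like state 12.2% and 4.7%.

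By share of UMIs, macrophages were the main holder of the 4 proteases but not of 2 of the inhibitors. Such shares also follow how many cells of a class were captured. By CPM, given below, Mmp14 was higher in endothelial-like cells than in macrophages as a whole. Macrophages held 86.1% of all Mmp12 UMIs in Ctrl and 81.4% in KD, 88.8% and 89.1% of Mmp13, 80.0% and 63.1% of Mmp14, and 83.1% and 77.2% of Mmp19. Timp1 was instead carried by the tumour or fibroblast class, which held 85.9% and 54.6% of its UMIs from 161 Ctrl and 96 KD cells. Timp3 was carried by endothelial-like cells, with 76.4% and 95.8% of its UMIs, and macrophages gave 5 and 20 Timp3 UMIs in all. Timp2 was spread over macrophages (44.4% and 51.1%), granulocyte-like cells (11.6% and 23.7%) and the tumour or fibroblast class (30.2% and 9.5%). These shares follow the cells captured after CD45 selection, which removes most stroma and tumour.

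Mmp13 and Mmp12 are direct neighbours among the protein-coding genes of chromosome 9 (RefSeq, GRCm38.p6), the first in an unbroken row of 10 Mmp genes. Since they were detected together and differed in their ratio between the libraries, as given below, the 200 bases before each RefSeq start site are shown. RefSeq promoter windows matched 6 of the 7 genes, Mmp12 with 2 start sites. In the lines below, capitals mark AP-1 motifs (TGANTCA) and the TATA box (TATAAA, sense strand), all 3 regions are on the plus strand of GRCm38.p6, and the counts themselves were made on GRCm39.
Mmp13, chr9:7272314-7272513: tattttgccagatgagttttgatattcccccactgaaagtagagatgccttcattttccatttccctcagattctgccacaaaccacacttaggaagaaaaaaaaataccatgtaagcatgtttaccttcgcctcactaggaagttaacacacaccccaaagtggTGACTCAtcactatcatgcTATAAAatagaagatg
Mmp12 first start, chr9:7344197-7344396: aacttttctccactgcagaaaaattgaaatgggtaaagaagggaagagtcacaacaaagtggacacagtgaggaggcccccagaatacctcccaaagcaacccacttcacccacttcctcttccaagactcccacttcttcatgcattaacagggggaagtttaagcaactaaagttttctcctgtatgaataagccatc
Mmp12 second start, chr9:7347174-7347373: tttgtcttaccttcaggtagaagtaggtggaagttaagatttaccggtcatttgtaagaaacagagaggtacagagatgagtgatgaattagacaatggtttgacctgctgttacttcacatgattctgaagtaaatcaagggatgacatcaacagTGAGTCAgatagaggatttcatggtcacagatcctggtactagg
Mmp13 has TGACTCA from 35 to 29 bases before its start with TATAAA from 16 to 11 bases before it. The second Mmp12 start has TGAGTCA from 44 to 38 bases before it, and the first has no such match in this window. An AP-1 motif on either strand was present in 5.48% of all 32851 windows of the same length and the sense TATA box in 6.27%. A RUNX core motif (TGTGGT, either strand, in 11.2% of all windows) was found before Mmp13 and Mmp14. The 200 bases before the other 4 genes were richer in G and C, with 58.0% for Mmp14 and Timp1, 66.5% for Timp3 and 69.5% for Timp2 against 39.0% for Mmp13, and each held a GC box (GGGCGG, either strand, in 31.0% of all windows). A match describes these letters and is not a site shown to be used.

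Mmp12, the macrophage elastase, was highest in the C1q-high-like state in both libraries. Its level there was 265 CPM (246 to 284) in Ctrl and 638 CPM (617 to 659) in KD. The cycling-like state (114 and 287 CPM), the Upp1/Ly6i state (112 and 177 CPM), the Cadm1/Psd3 state (90.4 and 194 CPM) and the inflammatory-like state (76.3 and 195 CPM) followed. Vcan monocyte-like cells stood apart with 2.20 CPM (0.713 to 5.13) in Ctrl and 8.94 CPM (5.84 to 13.1) in KD, next to 2.07 and 4.99 CPM in T cell-like cells, a lineage that should lack the gene. In KD, the Ltc4s-Pf4-like state was also low, at 51.3 CPM (43.3 to 60.2). Among Ctrl states the intervals of the cycling-like and Upp1/Ly6i states overlapped, as did those of the Cadm1/Psd3 and inflammatory-like states, so that only the C1q-high-like state and the monocytes were set apart from all others.

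**Figure D1:**
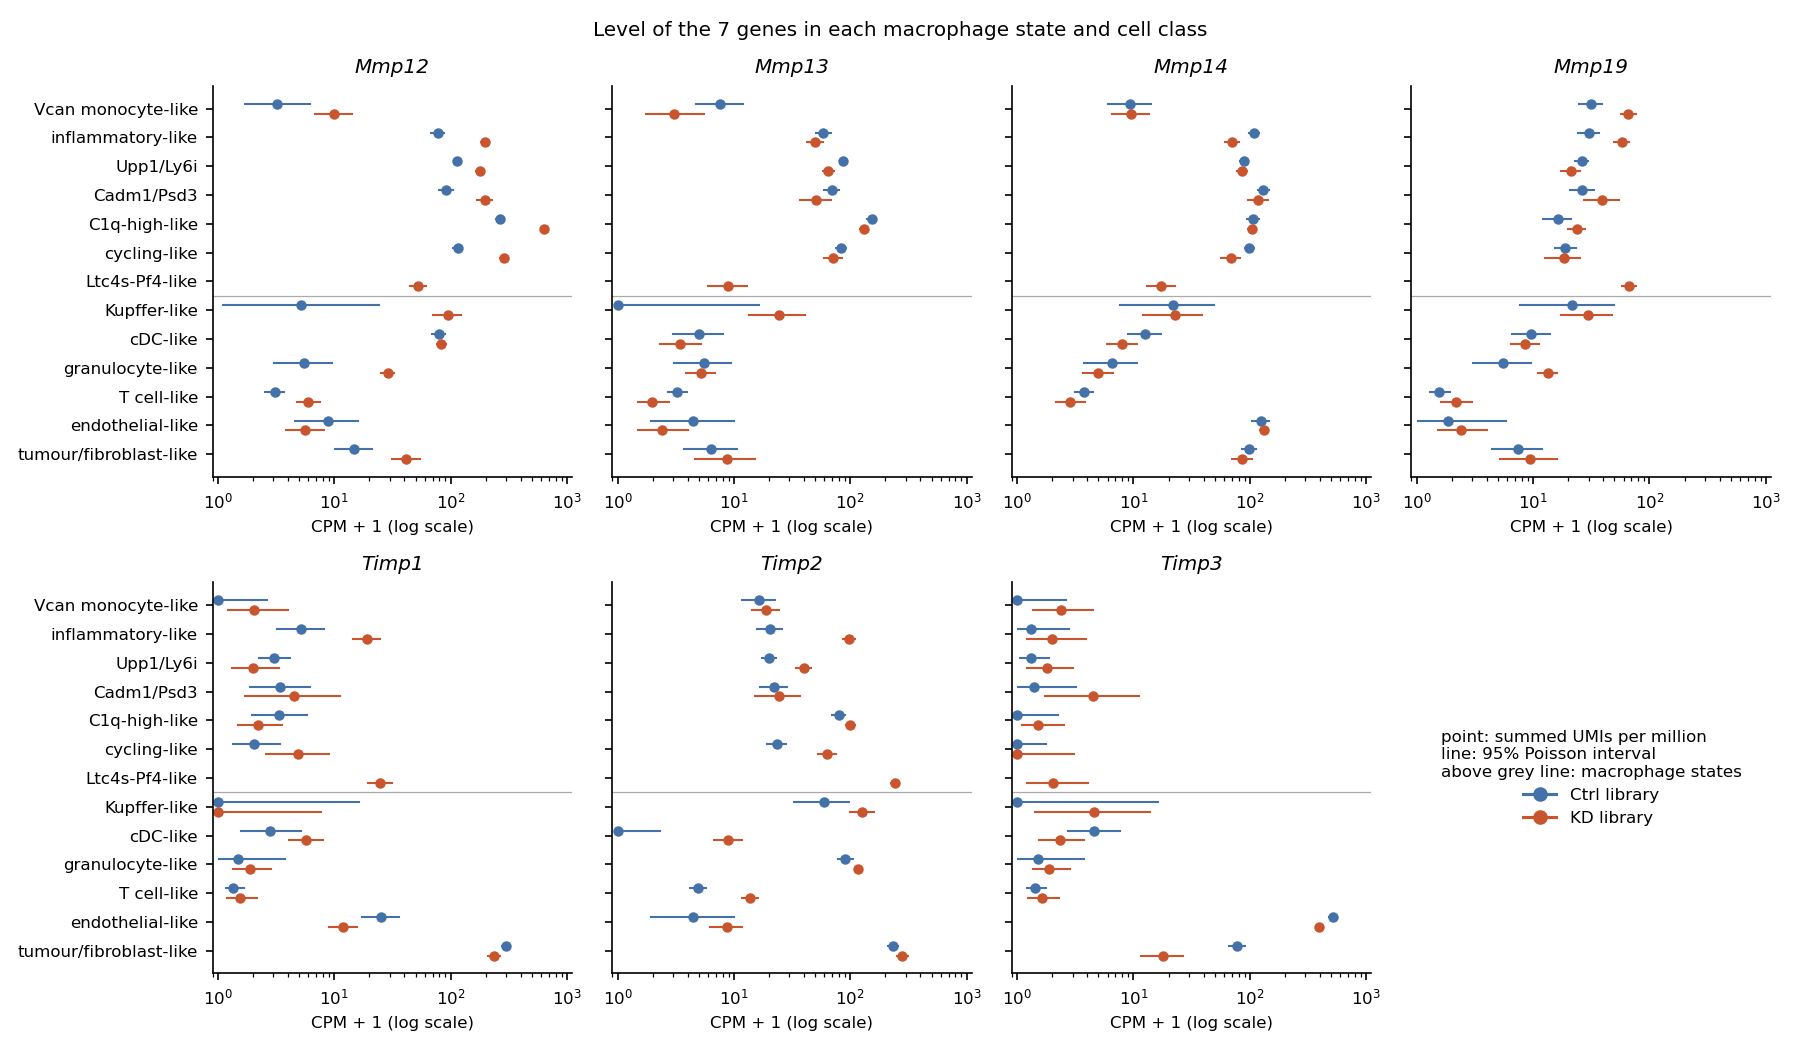
Level of each gene in 7 macrophage states (above the grey line) and 6 other classes, as summed CPM on a log axis of CPM + 1, with Ctrl in blue and KD in orange and lines for 95% Poisson intervals. The Ctrl point of the Ltc4s-Pf4-like state (4 cells) is left out. Mmp12, Mmp13 and Mmp14 dropped to a few CPM in Vcan monocyte-like cells, where Mmp19 did not, and Timp1 and Timp3 peaked outside macrophages at 298 and 521 CPM.

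Mmp13, the collagenase, was also highest in the C1q-high-like state and low in monocyte-like cells in both libraries, while the order of the states between them differed from that of Mmp12. The C1q-high-like state had 151 CPM (138 to 166) in Ctrl and 129.6 CPM (120.5 to 139) in KD. The Upp1/Ly6i state had 85.5 and 63.5 CPM, the cycling-like state 81.6 and 70.2 CPM, and the inflammatory-like state 57.7 and 48.7 CPM. Monocyte-like cells had 6.59 and 2.06 CPM. Outside macrophages and Kupffer-like cells no class listed here exceeded 7.65 CPM in either library, and cDC-like cells had 3.98 and 2.46 CPM.

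Mmp14, the membrane-type enzyme, lay between 67.4 and 129 CPM in the 5 states other than monocyte-like and Ltc4s-Pf4-like cells, and its Ctrl maximum was in the shallow Cadm1/Psd3 state (129 CPM, 115 to 144). Monocyte-like cells had 8.35 and 8.59 CPM, and Ltc4s-Pf4-like KD cells had 16.3 CPM. Endothelial-like cells (123 and 131 CPM) lay above macrophages as a whole in both libraries. The tumour or fibroblast class (97.1 and 84.9 CPM) reached at least the macrophage level. Neither was so for Mmp12 or Mmp13.

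Mmp19 was distributed over the states in another way. Its highest levels were in Vcan monocyte-like cells, with 30.3 CPM (23.6 to 38.4) in Ctrl and 65.0 CPM (56.0 to 74.9) in KD, and in Ltc4s-Pf4-like KD cells, with 65.8 CPM (56.8 to 75.9). The inflammatory-like state had 29.2 and 57.1 CPM. The C1q-high-like state, where Mmp12 and Mmp13 were highest, had the lowest Mmp19 in Ctrl at 15.2 CPM (11.1 to 20.4), an interval that overlapped that of the cycling-like state (18.0 CPM). In KD the lowest levels were in the cycling-like (17.3 CPM), Upp1/Ly6i (20.2 CPM) and C1q-high-like (22.9 CPM) states, with overlapping intervals. In Ctrl the monocyte-like, inflammatory-like, Upp1/Ly6i and Cadm1/Psd3 states all lay between 25.1 and 30.3 CPM with overlapping intervals.

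Between the libraries, macrophages as a whole had more Mmp12, Mmp19, Timp1 and Timp2 and less Mmp13 and Mmp14 in KD. The direction of Timp1 depended on which cells were called macrophages (-0.28 as first clustered, -0.16 with classes from single cells), and with cells thinned to 1500 UMIs the interval of Mmp13 included 0 (-0.13, -0.38 to 0.12). Mmp12 was at 114 CPM (2938 UMIs) in Ctrl and 269 CPM (6037 UMIs) in KD, a log2 ratio of 1.24 (1.17 to 1.30). Timp2 was at 26.8 and 87.5 CPM (690 and 1965 UMIs), a log2 ratio of 1.71 (1.58 to 1.84). These ratios, with that of Timp1, are past 2-fold, and no member was 2-fold lower.

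Mmp19 was at 23.7 and 38.1 CPM, a log2 ratio of 0.68 (0.53 to 0.84). Mmp13 was at 80.2 and 62.5 CPM (log2 ratio -0.36, -0.46 to -0.26) and Mmp14 at 90.8 and 67.9 CPM (-0.42, -0.51 to -0.33). Timp1 was at 1.98 and 7.08 CPM (log2 ratio 1.84, 1.38 to 2.32) and Timp3, with 5 and 20 UMIs, did not reach the 200 UMIs used below. Of 9912 genes with at least 200 UMIs in macrophages, 6 were members (all but Timp3), and 3 of these 6 were at least 2-fold higher in KD, beside 1.5% of all 9912 genes, and 0 were at least 2-fold lower, beside 1.88%. Of the 3, Timp1 turned direction under other choices of macrophages, and Timp2 had 0.90 with state shares held equal. The members were chosen with earlier results of these data known. The counting interval lay above 0 for 4 of the 6, beside 24.6% of all genes, and below 0 for 2, beside 30.6%. The median log2 ratio was 0.96 over the 6 members and -0.03 over all genes tested. The ratio of Mmp12 was above that of 99.1% of these genes, that of Timp2 above 99.6%, that of Mmp13 above 14.6% and that of Mmp14 above 11.98%.

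The higher Mmp12 of KD was found in each of the 6 states with at least 50 cells in both libraries. The log2 ratio was 0.66 (0.53 to 0.79) in the Upp1/Ly6i state, 1.10 (0.81 to 1.40) in the Cadm1/Psd3 state, 1.27 (1.16 to 1.38) in the C1q-high-like state, 1.36 (1.14 to 1.58) in the inflammatory-like state and 1.33 (1.16 to 1.51) in the cycling-like state, where 8 granulocyte markers summed to 128 CPM in Ctrl and 4235 CPM in KD. In the inflammatory-like state, 14 KD cells held 84.8% of the 585 KD UMIs and 1 of them held 146, which the counting interval does not cover. In Vcan monocyte-like cells the ratio was 2.02 (0.62 to 3.76) from 5 and 26 UMIs. With the share of each of the 6 states held equal in both libraries, the ratio of Mmp12 was 1.13. The different state sizes alone, over 7 states with the Ltc4s-Pf4-like state included and each level pooled over the libraries, gave 0.28. Both values hold for states drawn at resolution 0.5. At resolution 1.0, sub-clusters named C1q-high held 64 Ctrl and 587 KD cells, 441 and 72, and 352 and 95. Finer groups thus also differed in size between the libraries. Without the 2 states with over 90% of cells from 1 library, among them the Ltc4s-Pf4-like state, the ratio of Mmp12 over all macrophages was 1.40.

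**Figure D2:**
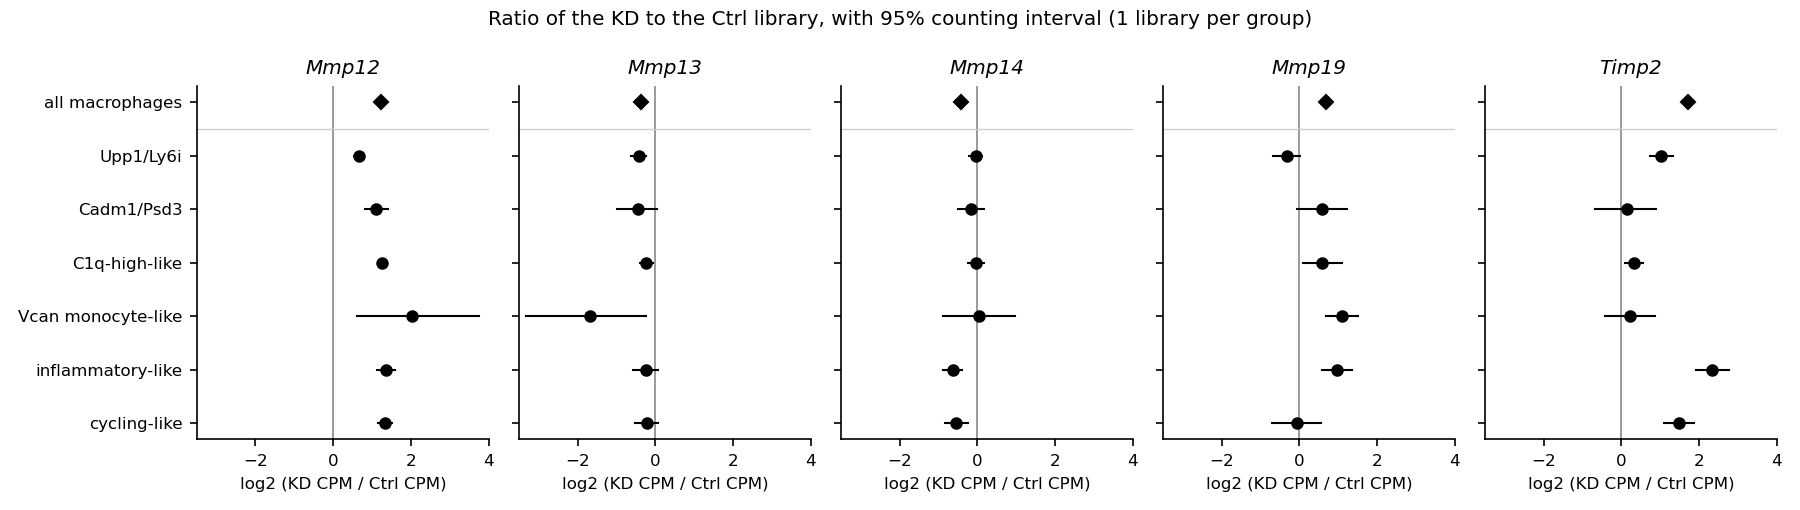
Log2 ratio of KD over Ctrl CPM of 5 genes in all macrophages (diamonds) and in 6 states (circles), with 95% counting intervals. Mmp12 lay right of 0 in all 6 states, Mmp14 lay left of 0 beyond its interval only in the inflammatory-like (-0.63) and cycling-like (-0.54) states, and Timp2 ranged from 0.14 to 2.34.

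For the other genes the states did not move together. Mmp13 was lower in KD in all 6 states, from -0.22 in the C1q-high-like and cycling-like states to -1.68 in monocyte-like cells (15 and 6 UMIs), and its interval lay below 0 in 3 of them. Mmp14 was level in the Upp1/Ly6i (-0.04, -0.21 to 0.13) and C1q-high-like (-0.03, -0.23 to 0.17) states and lower in the inflammatory-like (-0.63, -0.89 to -0.38) and cycling-like (-0.54, -0.84 to -0.25) states. With state shares held equal, the ratio of Mmp14 was -0.20 in place of -0.42, and state sizes alone, over 7 states as for Mmp12, gave -0.23. Without the 2 states with over 90% of cells from 1 library, the ratio over all macrophages was -0.17 for Mmp13 and -0.25 for Mmp14. Mmp19 was higher in KD monocyte-like (1.10, 0.69 to 1.52), inflammatory-like (0.97, 0.59 to 1.35) and C1q-high-like (0.59, 0.09 to 1.11) cells, and the Upp1/Ly6i state had -0.32 (-0.67 to 0.02).

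Mmp12 was not spread over the cells of a state but concentrated in a few. In the C1q-high-like state, 53 of 308 Ctrl cells and 252 of 594 KD cells held any Mmp12 UMI, and 19 Ctrl and 97 KD cells with at least 10 UMIs held 85.8% and 85.3% of all its UMIs there. The richest cell held 116 Mmp12 UMIs in Ctrl and 197 in KD. Mmp14, at a lower CPM there, was found in 61.0% of Ctrl and 54.5% of KD cells, and its richest cells held 5 and 7 UMIs. Counting intervals treat UMIs as independent, so for Mmp12 and, less so, Mmp13 (51.6% and 41.5% of UMIs in cells with at least 10) they are narrower than the variation between cells would give.

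**Figure D3:**
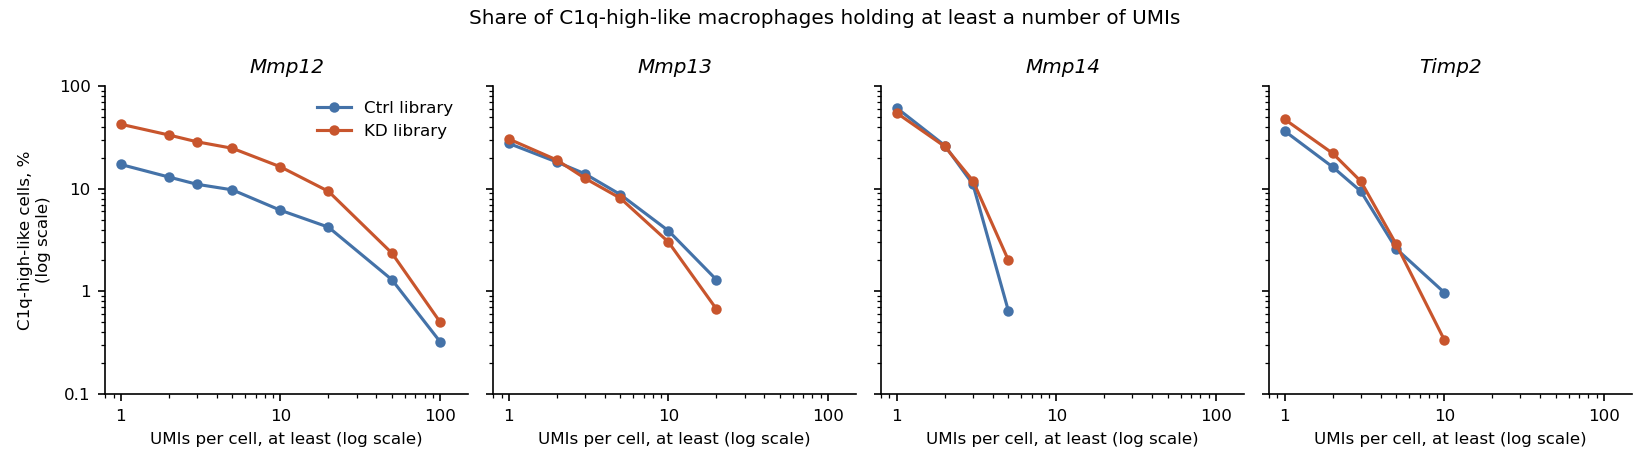
Percentage of C1q-high-like macrophages (308 Ctrl, 594 KD) with at least the number of UMIs on the x axis, both axes logarithmic, for Mmp12, Mmp13, Mmp14 and Timp2. For Mmp12 the KD curve lies above the Ctrl curve along its whole length (42.4% against 17.2% at 1 UMI, 16.3% against 6.17% at 10 UMIs), and for Mmp13 and Mmp14 the curves run close together at 1 to 3 UMIs.

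In the C1q-high-like and cycling-like states, the libraries differed in how many cells carried Mmp12 more than in how much each carried. With every cell thinned to 1500 UMIs (294 macrophages of Ctrl and 118 of KD were shallower and not used), 11.4% (8.04 to 15.4) of Ctrl and 27.4% (23.8 to 31.1) of KD C1q-high-like cells kept an Mmp12 UMI, and those cells held 2.71 and 3.34 UMIs each. In the cycling-like state the shares were 6.72% and 18.3%, with 1.69 and 2.17 UMIs per such cell. In inflammatory-like cells the shares were close, 3.81% (2.28 to 5.96) and 5.7% (3.51 to 8.66), with 1.67 and 3.95 UMIs per such cell. Over all macrophages the thinned share of Mmp12 was 5.71% (4.99 to 6.5) and 10.97% (9.84 to 12.2), and unthinned 10.3% and 19.1%. T cell-like cells, used as a background class that should lack the gene, had 0.362% and 0.637% thinned and 1.37% and 2.47% unthinned. Their medians were 6584 and 5577 UMIs per cell, and whether these Mmp12 UMIs were free RNA was not tested.

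Of the other genes, Timp2 had the thinned shares furthest apart. Timp2 was kept by 3.13% (2.6 to 3.74) of Ctrl and 9.51% (8.44 to 10.7) of KD macrophages, against 0.789% and 2.42% of T cell-like cells. Timp1 was kept by 0.372% (0.203 to 0.623) and 0.786% (0.493 to 1.19) and Timp3 by 0.0531% and 0.107%, with overlapping intervals. Mmp13 was kept by 5.68% and 5.18% and Mmp19 by 3.85% and 4.54%, with overlapping intervals. Mmp14 was kept by 12.6% (11.6 to 13.7) and 9.19% (8.14 to 10.3).

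Mmp12 and Mmp13 were found together in a cell more often than the product of their shares, although most cells with one lacked the other. Among thinned macrophages of the states with at least 50 cells, 44 of the 212 Ctrl cells and 60 of the 302 KD cells with Mmp12 held both (213 and 145 cells had Mmp13), where the product of their shares within each state gave 14.1 and 25.8, which is 3.11 (2.26 to 4.18) and 2.32 (1.77 to 2.99) times that product. Of the other pairs, only Mmp13 with Mmp19 in KD had an interval above 1 (11 cells, 2.58 times the product, 1.29 to 4.62), and in Ctrl that pair was found in 2 cells, 0.268 (0.0325 to 0.969) times the product of 7.46. Mmp12 with Mmp14 gave 0.875 and 1.08 times the product, and Mmp14 with Timp2 gave 1.49 (0.945 to 2.24) and 0.934 (0.57 to 1.44).

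The Mmp12-rich cells of the C1q-high-like state were compared with those lacking an Mmp12 UMI (255 Ctrl, 342 KD), a comparison added after the values were seen. Of 5115 genes with at least 200 UMIs in the state, ranked by the smaller of their log2 ratios in the 2 libraries, Mmp13 came next after 4 others, at 534 against 86.0 CPM in Ctrl and 364 against 60.3 CPM in KD. Above it came Ear2 (an eosinophil-associated ribonuclease, 92.8 against 2.99 CPM and 271 against 24.4 CPM), Tnfrsf9 (the costimulatory receptor 4-1BB), Il7r (the interleukin-7 receptor chain) and Fn1 (fibronectin, 193 against 29.1 CPM and 705 against 87.9 CPM). Hilpda, a lipid droplet protein induced by low oxygen, and Dcstamp, a fusion protein of osteoclasts and giant cells, were also among the first 8. Mmp14 was no higher in the Mmp12-rich cells, with 108 against 114 CPM in Ctrl and 110 against 106 CPM in KD, and Slc40a1, the iron exporter ferroportin, was lower in both libraries (7.74 against 37.6 CPM and 2.83 against 26.3 CPM). The rich cells were deeper, with medians of 14069 against 8572 UMIs in Ctrl and 10458 against 8716 in KD, and were chosen by UMIs of Mmp12, so these are descriptions of cells within each library.

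Although the 2 genes were detected together above that product, their proportion differed between the libraries in each of the 5 states in which it was computed for both. Vcan monocyte-like cells, with 5 and 26 Mmp12 UMIs and 15 and 6 Mmp13 UMIs, were too sparse and are not among them. In Ctrl there were 1.75 (1.55 to 1.97) Mmp12 UMIs for each Mmp13 UMI in the C1q-high-like state and 1.31 to 1.39 in the Upp1/Ly6i, Cadm1/Psd3, inflammatory-like and cycling-like states. In KD there were 4.92 (4.55 to 5.33) in the C1q-high-like state, 2.78 (2.44 to 3.17) in the Upp1/Ly6i state, 3.88 to 4.09 in the other 3 and 6.43 (4.13 to 10.5) in the Ltc4s-Pf4-like state. A single inflammatory-like KD cell held 146 of the 585 Mmp12 UMIs of its state. The highest of the Ctrl values thus lay below the lowest of the KD values, with intervals that did not overlap. These intervals treat UMIs as independent and, as given above, are narrower than the variation between cells would give. The few UMIs in T cell-like cells gave 0.912 (0.614 to 1.35) in Ctrl and 5.09 (2.64 to 10.8) in KD. These cells served above as a background class, and the source of their UMIs was not tested, so their values cannot be taken as independent of the macrophages of their library. In Ctrl, their 57 Mmp13 UMIs lay in 0.558% of the cells. A proportion of 2 genes within 1 group of cells does not depend on the depth or total RNA of those cells, though capture may differ between genes.

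**Figure D4:**
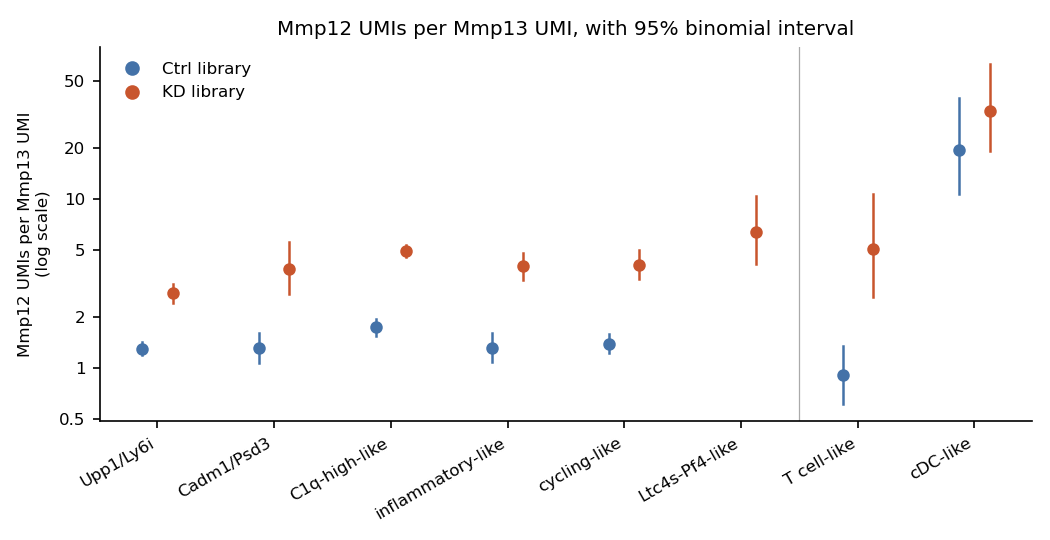
Mmp12 UMIs per Mmp13 UMI on a log axis in macrophage states (left of the grey line), T cell-like and cDC-like cells, Ctrl in blue and KD in orange, with lines for 95% binomial intervals. The 5 Ctrl states shown lie between 1.31 and 1.75 and the 6 KD states shown between 2.78 and 6.43, while cDC-like cells lie at 19.5 and 33.3.

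In macrophages, the balance of Timp2 to Mmp14, its partner in pro-MMP2 activation, depended on state and library. There were 0.295 (0.270 to 0.321) Timp2 UMIs per Mmp14 UMI in Ctrl macrophages and 1.29 (1.2 to 1.38) in KD. The inflammatory-like state had 0.179 and 1.4, and the cycling-like state 0.228 and 0.926. In the C1q-high-like state the values were 0.75 (0.630 to 0.891) and 0.959 (0.854 to 1.08), with overlapping intervals, and in Ltc4s-Pf4-like KD cells there were 14.7 (10.9 to 20.2).

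Timp2 was highest among macrophages in that Ltc4s-Pf4-like state, at 239 CPM (222 to 258) in KD from 691 UMIs. The 4 Ctrl cells of the state held 6 Timp2 UMIs. The C1q-high-like state had 79.1 CPM (69.3 to 89.9) in Ctrl and 99.2 CPM (91.3 to 108) in KD. Inflammatory-like cells had 19.2 CPM (14.7 to 24.8) and 97.1 CPM (86.3 to 109), a log2 ratio of 2.34 (1.93 to 2.76), and cycling-like cells 22.3 and 62.4 CPM, a ratio of 1.48 (1.09 to 1.88), beside summed granulocyte markers of 128 and 4235 CPM. Monocyte-like and Cadm1/Psd3 cells did not differ beyond counting error (0.22, -0.43 to 0.88, and 0.14, -0.68 to 0.91). With the shares of 6 states held equal, the ratio of Timp2 in macrophages was 0.90. State sizes alone, over 7 states with the Ltc4s-Pf4-like state included, gave 0.98. These values cover different sets of cells and do not split the value of 1.71 into parts. T cell-like cells also differed, with 3.9 and 12.8 CPM, a ratio of 1.72 (1.34 to 2.11), and the part of free RNA in this was not tested.

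Timp1 was low in macrophages, at most 3.9 CPM in the Upp1/Ly6i, Cadm1/Psd3, C1q-high-like, monocyte-like and cycling-like states. It was higher in inflammatory-like cells (13 and 54 UMIs, 4.17 and 18.0 CPM) and in Ltc4s-Pf4-like KD cells (69 UMIs, 23.9 CPM), while T cell-like cells had 0.358 and 0.535 CPM. The Upp1/Ly6i state had 2.03 and 0.998 CPM, a ratio in the other direction within its interval (-1.02, -2.79 to 0.44). The ratio of Timp1 over all macrophages rested on the Ltc4s-Pf4-like and inflammatory-like cells, which held 69 and 54 of the 159 KD UMIs. It was 1.04 without the 2 states with over 90% of cells from 1 library and -0.28 with macrophages as first clustered, when the Ltc4s-Pf4-like cells stood with the Kupffer-like cells.

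Granulocyte-like cells shared Timp2 with macrophages but not the proteases of this group. They had 89.7 CPM (77.1 to 104) of Timp2 in 805 Ctrl cells and 116 CPM (109 to 124) in 2307 KD cells, a log2 ratio of 0.37 (0.14 to 0.61). Mmp13 and Mmp14 were at 4.49 and 4.21 CPM and at 5.48 and 3.95 CPM. Mmp12 was at 4.49 CPM in Ctrl and 27.9 CPM in KD, where 5 cells held 66.7% of its 219 UMIs and a single cell held 80. Mmp19 was at 4.49 and 12.4 CPM. Their own proteases were Mmp9 (gelatinase B, 590.1 and 658 CPM), Mmp8 (neutrophil collagenase, 247 and 634 CPM) and Mmp25 (46.3 and 71.1 CPM), none of which is a member.

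cDC-like cells carried Mmp12 without Mmp13. Mmp12 was at 77.8 CPM (67.7 to 88.9) in 382 Ctrl cells and 82.1 CPM (74.5 to 90.2) in 582 KD cells, a log2 ratio of 0.08 (-0.16 to 0.32), so here the libraries did not differ beyond counting error and the interval of the difference lay below that of macrophages. That ratio depended on few cells. Of the 215 Ctrl UMIs, 78 came from Ccr7 cells, where 3 cells held 94.9% of them, and the splits below differed in direction. There were 19.5 (10.7 to 39.7) and 33.3 (19.3 to 63.1) Mmp12 UMIs per Mmp13 UMI, against at most 6.43 in the macrophage states for which it was computed. The small Pf4/Arg1 state of KD (51 cells), for which it was not, held 41 Mmp12 UMIs and 0 Mmp13 UMIs. Again a few cells carried most of it, with 6 Ctrl and 12 KD cells of at least 10 UMIs holding 55.3% and 61.0%.

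Within cDC-like cells, splits by single UMIs added after the values were seen gave different levels in the 2 libraries. Each of the first 3 groups left out cells with markers of the other 2. Cells with Xcr1 or Clec9a, which mark cross-presenting cDC1, had 51.9 CPM among 139 Ctrl cells and 87.1 CPM among 159 KD cells. Cells with Cd209a had 116 CPM (34 cells) and 59.2 CPM (100 cells). Cells with Ccr7, the receptor of mature migratory cells, had 252 CPM (48 cells) and 26.2 CPM (60 cells), but 3 Ctrl cells held 94.9% of those 78 UMIs. Cells with a UMI of C1qa, C1qb or C1qc had 127 and 118 CPM and those without had 28.4 and 54.8 CPM, and the part of macrophage RNA in the former was not tested. Timp2 was at 0 in Ctrl cDC-like cells, where 3 counts would be 1.09 CPM, and at 7.96 CPM (5.74 to 10.8) in KD from 42 UMIs. Of these, 33 lay in cells with C1qa, C1qb or C1qc (14.5 CPM) and 9 in those without (3.01 CPM), and the part of macrophage RNA was again not tested.

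Endothelial-like cells, which were nearly all of the sinusoidal type (142 of 149 Ctrl and 629 of 645 KD cells had a UMI of Clec4g or Stab2), carried Timp3 and Mmp14. Timp3 was at 521 CPM (480 to 564) in Ctrl and 391 CPM (373 to 410) in KD, a log2 ratio of -0.41 (-0.55 to -0.28). It was detected in 73.2% and 68.2% of these cells unthinned and 47.2% (38.1 to 56.4) and 37.1% (33.1 to 41.2) thinned. In the 7 Ctrl cells without Clec4g and Stab2 there were 34 Timp3 UMIs (2404 CPM), 31 of them in 1 cell, and without these cells Ctrl had 497 CPM. Mmp14 did not differ beyond counting error (log2 ratio 0.09, -0.18 to 0.36), and Timp1 was at 24.4 and 10.9 CPM (-1.16, -1.86 to -0.43) from 28 and 47 UMIs. Mmp12, Mmp13 and Mmp19 were each under 8 CPM in both libraries. The summed level of 8 granulocyte markers in these cells was 29.6 CPM in Ctrl, with 3 of the markers at 0, and 1430 CPM in KD, with none at 0, and its part in these values was not tested.

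A split of the tumour or fibroblast class, added after the values were seen, gave 2 groups of cells set apart by Timp3. Both groups carried Timp1 and Timp2. Keratin UMIs (Krt8 or Krt18) were found in 136 Ctrl and 82 KD cells, so some cells of the second group below also had them. Cells with a UMI of Krt8 or Krt18 and none of Dcn or Pdgfrb (129 Ctrl, 75 KD) had 237 and 235 CPM of Timp1 and 232 and 267 CPM of Timp2. They held 0 of the 155 Timp3 UMIs in Ctrl and 1 of 22 in KD. Cells with Dcn or Pdgfrb, genes of fibroblasts and pericytes (15 in each library), held all 155 Timp3 UMIs in Ctrl and 21 in KD, at 668 CPM (567 to 782) and 123 CPM (76.1 to 188). Their Timp1 was 840.1 CPM (726 to 967) and 211 CPM (148 to 292), where 3 Ctrl cells held 83.6% of the 195 Timp1 UMIs and 1 of them held 102, and their Timp2 246 and 392 CPM.

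For Timp3 and Timp1, the KD to Ctrl ratios of the whole class rested on the few cells with Dcn or Pdgfrb. This was not so for Timp2, of which the keratin cells held 395 of 470 UMIs in Ctrl and 296 of 365 in KD. For the class, the log2 ratio of Timp3 was -2.18 (-2.90 to -1.53) and that of Timp1 -0.35 (-0.55 to -0.15), whereas Timp1 in the keratin cells overlapped between the libraries (214 to 261 and 207 to 265 CPM). Timp3 came from 8 Ctrl cells in all, of which 5 held 94.2%, and 1 cell held 52 UMIs. Col1a1, Col1a2 and Col3a1, the fibrillar collagens of fibroblasts, were also lower, at 711, 309 and 657 CPM in Ctrl and 199, 90.3 and 275 CPM in KD. Mmp14 (log2 ratio -0.19, -0.54 to 0.15) did not differ beyond counting error, and Mmp12, at 13.8 and 40.6 CPM, was in 13 KD cells, 1 of which held 23 of the 53 UMIs.

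**Figure D5:**
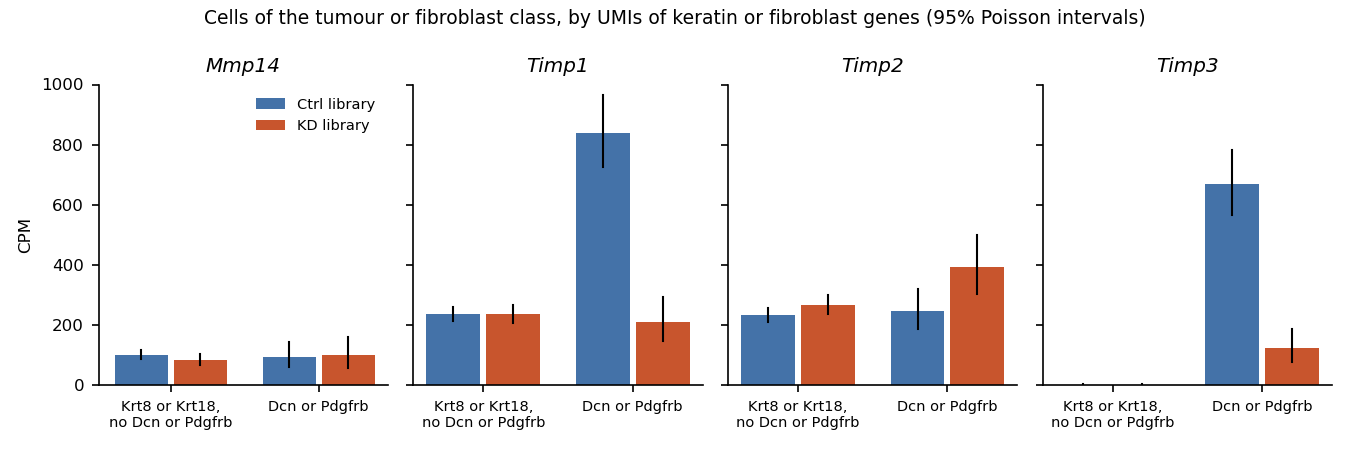
CPM of 4 genes in cells of the tumour or fibroblast class with keratin UMIs (129 Ctrl, 75 KD) and with Dcn or Pdgfrb UMIs (15 in each library), with 95% Poisson intervals as black lines. Timp3 stands only over the second group, at 668 and 123 CPM, and Timp1 in the keratin cells is 237 and 235 CPM.

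Kupffer-like cells were few (33 Ctrl, 75 KD). Their Timp2 was 58.0 CPM (31.7 to 97.2) and 126 CPM (97.9 to 159), a log2 ratio of 1.12 (0.27 to 2.06), from 14 UMIs in 10 Ctrl cells and 70 UMIs in 36 KD cells. The 8 granulocyte markers summed to 91.1 CPM in Ctrl and 3131 CPM in KD Kupffer-like cells, and their part in this was not tested. Mmp12 gave 1 and 52 UMIs, 2 KD cells holding 78.8% of the latter, and Timp1 gave 0 in both.

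The other genes of the system in macrophages were read from lists of proteases, activators and substrates. Of 19 other Mmp genes, 2 reached 200 UMIs there: Mmp8 at 7.53 and 42.6 CPM, and Mmp25 at 12.7 and 5.61 CPM. Mmp8 was highest in Vcan monocyte-like cells (55.8 and 241 CPM). The summed level of 8 granulocyte markers in macrophages was 235 CPM in Ctrl and 893 CPM in KD, with none at 0, and its part in the values of Mmp8 was not tested. In the cycling-like state, where Mmp12 and Timp2 were higher in KD, those markers summed to 128 CPM in Ctrl and 4235 CPM in KD, and their part in its values was not tested. In the C1q-high-like and inflammatory-like states they summed to 112 and 197 CPM and to 200 and 300 CPM, with 1 of 8 at 0 in each Ctrl state, against 64315 and 109338 CPM in granulocyte-like cells.

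Of 12 activators and partners, 10 were measured in macrophages and 0 were 2-fold apart between libraries in either direction, beside 1.5% and 1.88% of all genes. Furin, which cleaves the proenzyme of Mmp14, had 177 and 175 CPM, and Bsg, the MMP inducer basigin, 263 and 259 CPM. Lrp1, the endocytic receptor that clears MMP and TIMP complexes, had 163 and 227 CPM (log2 ratio 0.48, 0.42 to 0.54), and Cd63, a Timp1 receptor, 67.1 and 116 CPM (0.79, 0.71 to 0.88). Plau, the urokinase that generates plasmin, was lower in KD (78.5 and 52.3 CPM, -0.59, -0.69 to -0.48) and its receptor Plaur higher (298 and 375 CPM, 0.33, 0.29 to 0.37). Of 10 matrix genes, 3 were measured, and Fn1 was at 163 and 611 CPM, a log2 ratio of 1.90 (1.85 to 1.95), while Col4a1 (-0.14) and Lamc1 (-0.11) did not differ beyond counting error. Fn1 was among the leading genes of the Ltc4s-Pf4-like state (4 Ctrl and 340 KD cells), and the part of that state in its ratio was not tested. Timp4 and Reck, the other inhibitors listed, did not reach 200 UMIs in macrophages.

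Genes with the most similar pattern over 30 profiles of states and classes (each of at least 50 cells of 1 library, on log2(CPM + 1)) were named for each member among 11390 genes. The profiles share libraries and lineages, so these Pearson correlations describe the order of groups and carry no p. Nearest to Mmp12 was Anpep (aminopeptidase N, r = 0.92), followed by Pdlim4, Dcstamp, C1qb and C1qc. Nearest to Mmp13 were the chemokine Ccl12 (0.93), Gbp2b, Ccl7, C1qc and C1qb, and nearest to Mmp19 was Csf1r (0.93), the macrophage growth factor receptor, before Dram1, Mfsd7a, Vis1 and Clec4a3. Mmp14 was nearest to C1ra (0.93), Snx24, Sash1 and Parvb, and Timp3 to Fign (0.96), Ccdc9b, Adamts4, Tspan12 and Tmem47. Timp1 was nearest to Cgnl1 (0.90), Flrt2, Cav1, Htra1 and Mt2, and Timp2 had no close match, its highest being Ropn1l (0.73), before Rnf128, H2-D1, Epb41l1 and Agtrap. Between members, Mmp12 and Mmp13 were closest (0.84), then Mmp13 and Mmp14 (0.75), and Timp2 was not above 0.41 with any other member.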

How the data were processed

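Deposited UMI counts of 2 libraries were used, 1 per group. The authors made these counts with 10x 3′ v3.1 chemistry and Cell Ranger 7.1.0 on GRCm39, and the submitters' processing notes also list Seurat 5.1.0 and R 4.4.1. The deposited barcodes (10416 Ctrl, 10943 KD) were filtered as in the study: at least 200 genes, at most 10% mitochondrial UMIs, 30000 UMIs and 6000 genes. Cells were clustered in Seurat 5.3.0 (R 4.3.3) on 2000 variable genes without the members and lists, with 20 components at resolution 0.5, and named by at least 3 markers. Macrophages and Kupffer-like cells were clustered a second time, a step chosen after the first clusters joined Ltc4s-Pf4-like with Kupffer-like cells. Sub-clusters best matched by T or B cell markers (146 cells) were left out. UMIs were summed per group and library and divided by all its UMIs (CPM, calculated here). Intervals were exact Poisson for sums, Clopper-Pearson for shares and conditional binomial for ratios. Doublets were removed only by the upper limits, with Scrublet scores (scanpy 1.11.5) as an alternative. The ratio and its interval were tested on simulated data. Named were the members, listed genes with at least 200 UMIs in a class, and the 5 most similar genes to each member (1 of them is not reported here), and genes outside this rule were chosen after their values were seen. The members and lists were chosen with earlier results of these data known. Ly9 in tumour cells was not checked here.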

Additional observations from a re-analysis of the deposited data

Results flagged for a closer look

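The inhibitors Timp1 and Timp3 had KD to Ctrl log2 ratios of opposite sign in macrophages and in endothelial-like and tumour or fibroblast cells. For Timp1 the ratio was 1.84 in macrophages, -1.16 in endothelial-like cells and -0.35 in the tumour or fibroblast class. For Timp3 it was 2.20 in macrophages, from 5 and 20 UMIs, -0.41 in endothelial-like cells and -2.18 in the tumour or fibroblast class. Under other choices of macrophages their ratio was negative too: Timp1 in macrophages was -0.28 as first clustered and -0.16 with classes from single cells, where Timp3 was -0.99. Each was flagged for the opposite sign alone, each ratio rests on 1 library per group, and the differences between the ratios were not tested.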

How the results depend on the processing

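No paired analysis was possible because each group is 1 library, and for the same reason no replicate could be left out. Over 14 alternatives (13 for Timp3), the log2 ratio in macrophages ranged from 1.12 to 1.40 for Mmp12, -0.46 to -0.13 for Mmp13, -0.48 to -0.20 for Mmp14, 0.35 to 0.73 for Mmp19, -0.28 to 2.01 for Timp1, 0.90 to 1.76 for Timp2 and -0.99 to 2.53 for Timp3. Only Timp1 and Timp3 turned direction. With classes taken from single cells the ratios were 1.39 for Mmp12, -0.15 for Mmp13, -0.16 for Timp1 and -0.99 for Timp3. With macrophages as first clustered they were 1.32 for Mmp12, -0.21 for Mmp13, -0.26 for Mmp14, 0.42 for Mmp19, -0.28 for Timp1 and 1.14 for Timp2. Without the 2 states with over 90% of cells from 1 library they were 1.40, -0.17, -0.25, 0.52, 1.04 and 1.26 in the same order. With cells thinned to 1500 UMIs they were 1.40 for Mmp12, -0.13 for Mmp13, 0.35 for Mmp19 and 1.08 for Timp1. With state shares held equal they were 1.13 for Mmp12, -0.20 for Mmp14, 0.46 for Mmp19, 0.97 for Timp1 and 0.90 for Timp2. Without likely doublets Mmp12 had 1.12, and without cells of over 100 member UMIs, Mmp12 had 1.13 and Mmp13 -0.46. The last of these, the first clustering, and leaving out 1-library states, the shallow state or adding Kupffer-like cells were chosen after seeing the data. The cause of these differences was not tested. The other 69 values lay within the counting interval.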
